A study of Mus musculus with 16 samples.

Results

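The natural killer gene complex window is a stretch of mouse chromosome 6 from 128000000 to 133500000 (build mm8). Its members are all non-control array probes placed there, 543 of 233212 placed probes. It holds the lectin-like natural killer receptor genes together with bitter taste receptor and proline-rich protein genes. The probes lay at a median spacing of 6712 bp, against 7896 bp for the 13430 probes on the rest of chromosome 6, and the longest gap without a probe began at 130696451 and ended at 130826697.

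Natural killer cells read the surface of other cells through receptors coded in this complex, of which the Klra family (the Ly49 receptors) binds MHC class I molecules and Klrc with Klrd1 forms the CD94/NKG2 receptors. The complex is known for differing between inbred mouse strains in how many Klra genes it carries. The Tas2r genes code for bitter taste receptors, and the Prp, Prh and Prb genes for proline-rich proteins of saliva. In the RefSeq gene table, which is on the build GRCm38.p6, chromosome 6 carries 16 Klra, 6 Klrb1, 3 Klrc, 9 Clec2, 38 Tas2r and 5 Prp, Prh or Prb genes. These counts are for the whole chromosome and not for the window. Protein-coding among them are 13 Klra, 5 Klrb1, 3 Klrc, 8 Clec2, 33 Tas2r and 4 Prp, Prh or Prb genes. In that table the order runs from Klrb1 and Clec2 genes past Cd69, Clec7a and Olr1 to Klre1, Klrd1, Klrk1, Klrc and Klri genes. Klra genes follow, and then Tas2r and proline-rich protein genes. No mm8 position of a gene was used here, so the results are given by position and no probe is assigned to a gene.

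Genomic DNA from 16 syngeneic mouse tumour lines, 1 array per line and 1 cultured sample of each, was hybridised in red against 1 commercial mouse genomic DNA in green. Values are log2 ratios of line over reference, centred on each array's autosomal median, so a value of -1 is a 2-fold lower signal than in the reference. The Balb/C lines were CT26 (colon), 4T1 (breast) and Renca (kidney), and the 1 DBA/2 line was P815 (mast cells). The C57BI6 lines were MC38 (colorectal), LL2 (lung), B16F0 ECAC, B16F0 ATCC, B16F10 NCI and B16F10 ATCC (melanoma), Hepa1-6 (liver), PAN02 (pancreas), TRAMPC1 and TRAMPC2 (prostate), EL4 (blood) and ID8 (ovary). The 4 B16 arrays share a tumour and so do the 2 TRAMPC arrays, so they were averaged to leave 8 C57BI6 families. All lines are tumours that can carry changes of their own, and the labels give neither normal tissue of any strain nor the strain of the reference DNA. All 3 Balb/C lines belong to scan 1, which also holds B16F10 NCI, Hepa1-6 and ID8. The arrays labelled Hepa1-6 and PAN02 had nearly the same profile across the genome, with a correlation of 0.992 over 2408 autosomal bins of 1 Mb, where the next of the 59 pairs from different C57BI6 families reached 0.564. Within the window a different measure was used, the median size of the difference over its probes. At 0.14 in log2 theirs ranked 13 of 59 from the smallest, so by this measure they were not the most alike pair. They were kept as separate families, and counted as 1 family they left 81 called window probes in place of the 84 below. Differences between lines measure the spread between tumours, each seen once.

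Signals fell sharply at many separate places of the window in Balb/C, and C57BI6 lines stayed near or above the reference there. Of 542 window probes that could be tested, 84 differed between the 3 Balb/C lines and the 8 C57BI6 families, which is 15.5% of the window (limma with Benjamini-Hochberg adjustment over 220255 autosomal probes, threshold 0.05). On the rest of chromosome 6 the share was 1.92% (257 of 13412 probes), and over all autosomes it was 2.34% (5153 probes). Of the 84, 79 (14.6%) were lower and 5 (0.923%) were higher in Balb/C. The rest of chromosome 6 had 1.74% lower and 0.171% higher, and all autosomes 1.98% lower and 0.36% higher. Called or not, the 3 Balb/C values did not overlap the 8 C57BI6 values at 89 of the 542 tested window probes (16.4%), against 374 on the rest of chromosome 6 (2.79%). Of the 84 called probes this held at 80, a share that the call itself favours.

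The size of the drop was large. At 36 of the 79 lower probes the difference was 4-fold or more, and this count is the same when signals not above background are raised to the floor described below. It was measured as 16-fold or more at 17, but 12 of these were not above background in any Balb/C line, and with the floor 5 remain at 16-fold or more. At 38 of them Balb/C lay at or below -1 while C57BI6 lay within 0.5 of the reference. At another 12 Balb/C was equally low but C57BI6 lay more than 0.5 above the reference. At 10 Balb/C lay within 0.5 of the reference and C57BI6 more than 0.5 above it, so that there the C57BI6 lines were the ones that departed. A low ratio can come from fewer copies or from sequence that matches the probe less well, and these ratios cannot tell them apart.

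**Figure D1:**
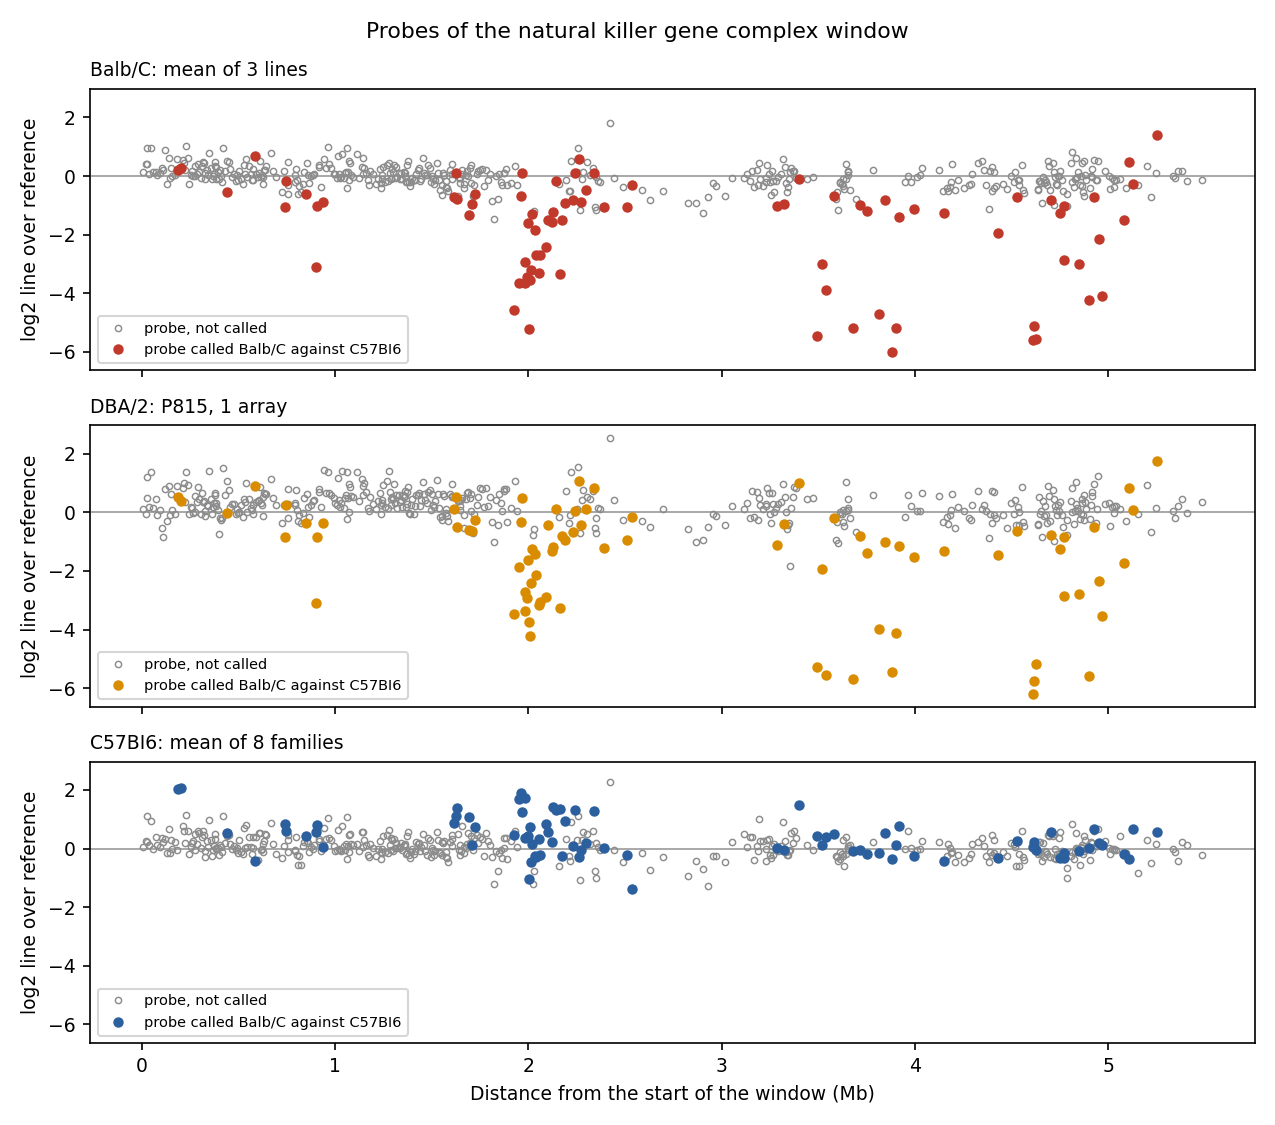
Log2 ratio of line over reference (y axis) at each of the window's probes against the distance from the start of the window in Mb (x axis), for the mean of the 3 Balb/C lines, for P815 and for the mean of the 8 C57BI6 families. Filled points are the 84 probes called in the strain comparison and open points are the others. The deep points of Balb/C and P815 sit at the same places, and the C57BI6 panel has none below -2.

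No Balb/C line gave a signal well above background at 16 window probes, and all 16 were called. That is 2.95% of the window against 0.0745% of the rest of chromosome 6 (10 probes). P815 had 18 such probes in the window (3.31%) and 27 on the rest of the chromosome (0.201%), and 14 were shared with the 3 Balb/C lines. No window probe was in this state in all 12 C57BI6 arrays, a stricter condition than in 3 Balb/C lines or in P815 alone. The level at such a probe is only a bound. Folds marked "at least" use, in place of the dim signal, the higher of it and the weakest signal that the same array still measured well above background.

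In each line the share of window probes at or below -1 from the median of the rest of chromosome 6 showed the same division. It was 11.8% in CT26, 11.2% in 4T1 and 11.2% in Renca, a mean of 11.4% ± 0.32 (SD, n = 3), and P815 lay beside them at 11.8%. The 8 C57BI6 families ran from 1.29% through a median of 2.19% to 5.16%, with a mean of 2.67% ± 1.41 (SD, n = 8), so no family reached the Balb/C lines. On the rest of chromosome 6 Balb/C and C57BI6 were alike, at 0.65% ± 0.37 (SD, n = 3) and 0.61% ± 0.43 (SD, n = 8), and P815 was at 3.31%. Counted in either direction, the share of window probes at or past 1 was 13.4% in CT26, 12.3% in 4T1, 11.6% in Renca and 14.5% in P815, and the rest of the chromosome gave 2.33%, 1.27%, 0.514% and 6.45% in the same order. In B16F0 ECAC, B16F0 ATCC, B16F10 NCI and B16F10 ATCC the window had 5.34%, 7.37%, 5.16% and 5.17%, beside 1.15%, 3.02%, 1.57% and 2.27% on the rest. MC38, LL2, Hepa1-6 and PAN02 had 6.63%, 7.56%, 3.31% and 6.81% in the window, beside 2.03%, 3.12%, 1.15% and 2.61%. TRAMPC1, TRAMPC2, EL4 and ID8 had 5.34%, 6.45%, 6.08% and 4.24%, beside 1.67%, 3.0%, 2.87% and 1.73%. Every array thus had a larger share in the window than outside it, and the 3 Balb/C lines and P815 had the largest window shares of the 16. These shares are descriptions with no test.

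The middle of the distribution moved little. The window's median minus that of the rest of chromosome 6 was -0.13 ± 0.019 in Balb/C (SD, n = 3), -0.067 in P815 and -0.095 ± 0.15 in C57BI6 (SD, n = 8). Within C57BI6 it ran from -0.40 in MC38 to 0.040 in EL4. The Balb/C lines thus lay inside the range of the C57BI6 families by this median.

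Called probes stood in groups. Averaged over 100 kb bins with at least 3 probes, 10 of 50 window bins differed (20%), all lower in Balb/C, against 0.802% on the rest of chromosome 6 and 1.36% of 22804 autosomal bins, or 1.28% counting lower calls alone (limma with Benjamini-Hochberg adjustment, threshold 0.05). They formed 5 blocks, of which 3 held more than 1 bin: 129900001 to 130200000, 131400001 to 131600000 and 131700001 to 132000000. The bins starting at 132600001 and 132900001 stood alone. Outside these blocks 42 of 462 tested probes were called (9.09%). The longest stretch of neighbouring bins without a called probe ran from 129000001 to 129600000, where none of 96 probes was called and the largest difference in size was 0.60.

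**Figure D2:**
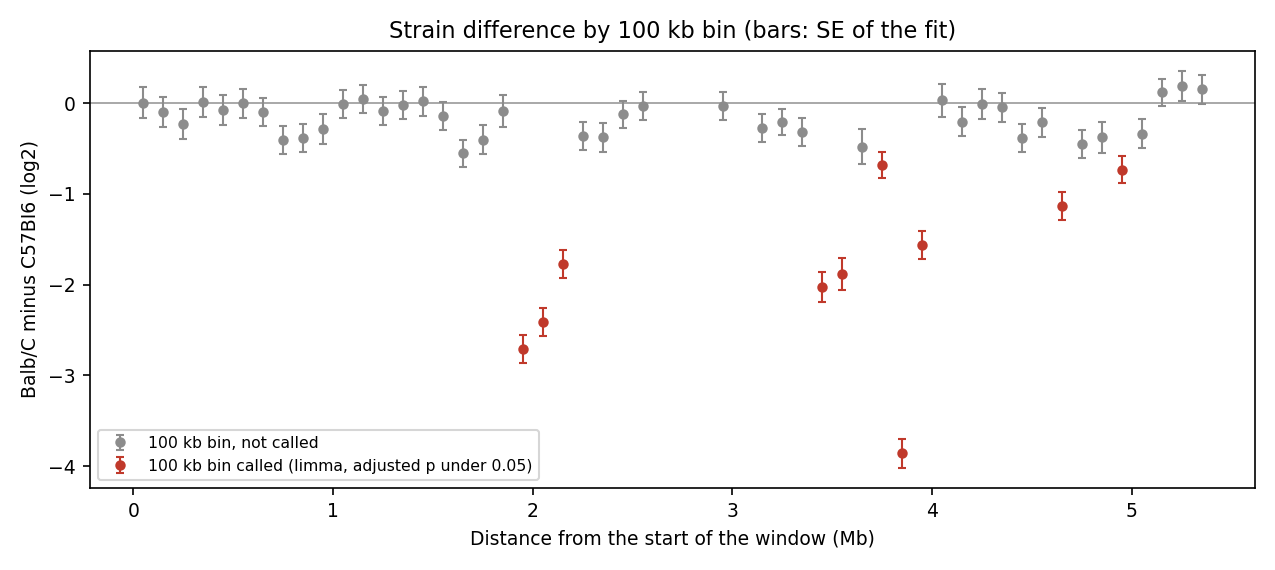
Difference of Balb/C minus C57BI6 in log2 (y axis, bars are the SE of the fit) for each 100 kb bin with at least 3 probes, against the distance from the start of the window in Mb (x axis). The 10 called bins lie between -0.68 and -3.86, and the other 40 lie nearer to 0.

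The first block held the longest altered stretch. In its bins from 129900001, 130000001 and 130100001 the difference was -2.71 ± 0.15, -2.41 ± 0.16 and -1.77 ± 0.15 (SE of the fit, 3 lines against 8 families), with limma adjusted p-values of 1.41e-09, 1.05e-08 and 8.99e-07. Of its 31 tested probes 24 were called (77.4%). Balb/C lay below the reference in all 3 bins, and the bins differed in where C57BI6 lay: it stood at 0.83 in the first, -0.20 in the middle one and 0.59 in the last, and Balb/C at -1.88, -2.61 and -1.18.

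Within that block each Balb/C line had the same run of 18 neighbouring probes at or below -1, from 129980378 to 130128658 (148.3 kb). Its mean was -2.36 in CT26, -2.64 in 4T1 and -2.44 in Renca. P815 stood at -2.18, with 16 of the 18 probes at or below -1 from the rest of chromosome 6. The C57BI6 families ran from -0.21 through a median of 0.19 to 0.66. Probe means over the 3 Balb/C lines lay anywhere from -1.19 to -5.20 within the run, so its depth was uneven, and 3 of the probes were dim in every Balb/C line.

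Around that run the strain comparison gave 3 runs of called probes, a run being 2 or more adjacent probes with calls of 1 direction. From 129952722 to 130019157 (11 probes), CT26 lay at -2.55, 4T1 at -2.89 and Renca at -2.50, a mean of -2.65 ± 0.21 (SD, n = 3). The C57BI6 families ran from 0.34 through 0.65 to 1.16, with a mean of 0.65 ± 0.24 (SD, n = 8), and P815 was at -2.18. The groups did not overlap, which the choice of called probes favours. Balb/C was at least 7.18-fold lower (largest limma adjusted p of the run's probes 0.000137).

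The next run, from 130036380 to 130142786 (9 probes), had CT26 at -1.84, 4T1 at -2.03, Renca at -1.94 and P815 at -1.72. Its C57BI6 families lay between 0.025 and 0.94, with a mean of 0.44 ± 0.27 (SD, n = 8), and Balb/C was at least 4.95-fold lower (largest limma adjusted p 1.64e-05). The last of them, from 130162373 to 130188046 (3 probes), had CT26 at -1.98, 4T1 at -1.88, Renca at -1.87 and P815 at -1.67. There the families lay between 0.33 and 1.36, and Balb/C was at least 4.79-fold lower (largest limma adjusted p 0.00165). In all 3 runs the 3 Balb/C lines lay closer to each other than to any C57BI6 family, which the choice of called probes also favours.

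At the start of this block C57BI6 itself was high. From 129952722 to 129968813, 3 neighbouring probes lay at or above 1 over the rest of the chromosome in LL2, B16F0 ATCC, PAN02, TRAMPC1, TRAMPC2 and EL4. Their means over the rest of the chromosome were 1.27, 1.57, 1.66, 1.54, 1.39 and 1.68. This was the most frequent run of single C57BI6 lines in the window.

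In the blocks from 131400001 and 131700001 Balb/C was again lower, by amounts that varied from bin to bin. The bins from 131400001 and 131500001 differed by -2.03 ± 0.17 and -1.88 ± 0.18 (SE of the fit), with limma adjusted p-values of 5.18e-07 and 2.86e-06. They rest on 3 and 5 probes, and in each 1 probe was dim in every Balb/C line. In the bin from 131400001 that probe starts at 131492275, where the measured difference was -5.89, so the size of the bin's difference rests largely on it. The bins from 131700001, 131800001 and 131900001 differed by -0.68 ± 0.14, -3.86 ± 0.16 and -1.56 ± 0.16 (limma adjusted p 0.0153, 1.44e-11 and 5.29e-06). The bin from 131700001 was no longer called without 4T1 (limma adjusted p 0.114), without Renca (0.0643), within scan 1 (0.0924), with the scan as a block (0.312) or when centred on the rest of chromosome 6 (0.378). The bin from 131800001 had the largest difference in the window, with Balb/C at -3.85 ± 0.10 (SD, n = 3), P815 at -3.47 and C57BI6 at 0.011 ± 0.29 (SD, n = 8), but it rests on 3 probes, 1 of them dim in every Balb/C line.

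From 131492275 to 131579509 (4 probes) CT26 lay at -2.95, 4T1 at -3.49, Renca at -3.34 and P815 at -3.25. The C57BI6 families ran from -0.040 through 0.33 to 0.90, and Balb/C was at least 7.30-fold lower (largest limma adjusted p 0.00287). From 131812354 to 131918593 (5 probes) the same lines lay at -3.69, -3.65, -3.53 and -3.14, and the families from -0.14 through 0.18 to 0.75. Here Balb/C was at least 7.76-fold lower (largest limma adjusted p 1.62e-05). Neither run overlapped between the groups, which the choice of called probes favours. A single probe between them, at 131676940, was chosen after its values were seen: it was not well above background in any Balb/C line or in P815, where the signal was at least 22.6-fold and at least 22.2-fold lower than in C57BI6 (-0.097 ± 0.39, SD, n = 8), while no neighbour of it was called.

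The last 2 called bins, from 132600001 and 132900001, differed by -1.13 ± 0.16 and -0.74 ± 0.15 (SE of the fit; limma adjusted p 0.000245 and 0.012). The deepest run of the window lies in the first of them, from 132609315 to 132622717 (3 probes), with CT26 at -4.81, 4T1 at -6.19, Renca at -5.25 and P815 at -5.71. C57BI6 ran from -0.41 through 0.071 to 0.60. All 3 probes were dim in every Balb/C line and in P815, and Balb/C was at least 16.02-fold lower (largest limma adjusted p 4.78e-11). The bin from 132900001 was no longer called without CT26 (limma adjusted p 0.0526), 4T1 (0.0787) or Renca (0.0678), with the scan as a block (0.199) or when centred on the rest of chromosome 6 (0.256). Without probes dim in every Balb/C line the bin from 132600001 differed by -0.20 and was no longer called (limma adjusted p 0.759).

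From 132952955 to 132968482 (2 probes) CT26, 4T1 and Renca lay at -3.12, -3.06 and -3.18, P815 at -2.94 and C57BI6 between -0.20 and 0.81, a measured difference of 9.68-fold (largest limma adjusted p 1.62e-08). At 1 of the 2 probes only 4T1 of the 3 Balb/C lines was well above background, and with the others at the floor the difference was 9.03-fold. From 132768789 to 132770767 (2 probes) they lay at -1.93, -2.20 and -1.69, with P815 at -1.84 and C57BI6 between -0.62 and 0.33. That is 3.29-fold lower in Balb/C (largest limma adjusted p 0.00854), but the adjusted p rose above 0.05 without 4T1 (0.133), within scan 1 (0.079), with the scan as a block (0.444) and with centring on the rest of chromosome 6 (0.0722).

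**Figure D3:**
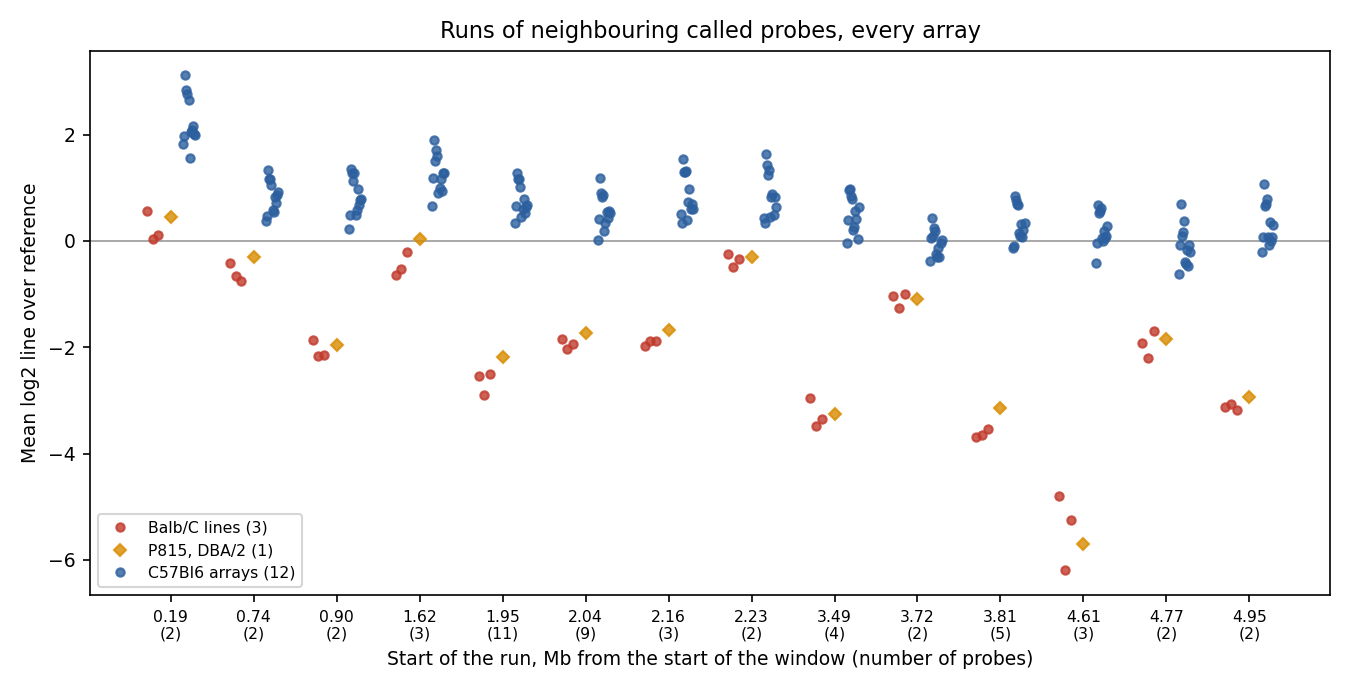
Mean log2 ratio of line over reference (y axis) of each array in the 14 runs of neighbouring called probes, ordered by the distance of their start from the start of the window in Mb (x axis, with the number of probes in parentheses). Red points are the 3 Balb/C lines, the diamond is P815 and blue points are the 12 C57BI6 arrays. Red and blue do not overlap in any run, which the choice of called probes favours. The diamond lies nearer the red points in all 14 runs.

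In the proximal part of the window the runs were short. From 128899855 to 128909172 (2 probes) CT26 stood at -1.86, 4T1 at -2.17, Renca at -2.15 and P815 at -1.96, with C57BI6 between 0.22 and 1.26, so Balb/C was at least 5.32-fold lower (largest limma adjusted p 4.43e-06). A run from 128190871 to 128203958 (2 probes) differed in kind. Balb/C was near the reference at 0.56, 0.046 and 0.11, P815 was at 0.46, and C57BI6 lay above it at 1.55 through 2.01 to 2.85, a 3.50-fold difference (largest limma adjusted p 5.89e-05).

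Of the 84 called probes, 52 lay in 14 runs, all lower in Balb/C, and 7 runs had at least 3 probes. The 4 runs not described above, which start at 128742162, 129616712, 130232291 and 131717326, were between 1.99-fold and 3.0-fold lower. B16 had the highest family mean in each of the 14 runs, and its 4 arrays had a median of 0.63 to 0.77 over the rest of chromosome 6. The other 11 arrays of the fit had medians from -0.15 to 0.27 there. Centred on the rest of chromosome 6, the fit called 74 window probes (13.7%, against 1.2% of the rest of chromosome 6 and 1.28% of autosomal probes), all among the 84.

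Balb/C was higher at 5 single probes, none next to another. They start at 128584020, 130259727, 130534596, 133107363 and 133252583, with differences from 0.83 to 1.11. At 130534596 the C57BI6 families were the low ones, at -1.39 ± 0.36 (SD, n = 8), while Balb/C stood at -0.30 ± 0.073 (SD, n = 3) and P815 at -0.14. P815 lay on the Balb/C side at all 5. Limma called 3 window probes higher in Balb/C without CT26 and 3 without Renca. Within scan 1 it called no window probe higher in Balb/C (78 lower), and with the scan as a block it called 2 higher and 58 lower.

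P815, the DBA/2 mast cell line, took no part in the fit and followed Balb/C at most called probes. It lay nearer the Balb/C mean than the C57BI6 mean at 74 of 84 (88.1%), against 112 of 257 called probes on the rest of chromosome 6 (43.6%) and 2780 of 4811 on the other autosomes (57.8%). Its mean over the 79 probes called lower was -1.74, beside -1.87 in CT26, -2.15 in 4T1 and -1.91 in Renca, and the 12 C57BI6 arrays lay between 0.060 and 1.14. All 10 exceptions were probes lower in Balb/C. The one with the largest strain difference starts at 130100953, where P815 stood at -0.45, Balb/C at -1.49 and C57BI6 at 0.56.

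The lists of low probes overlapped accordingly. At or below -1 from the rest of chromosome 6 were 49 window probes in all 3 Balb/C lines and 64 in P815, with 46 in both (93.9% of the Balb/C list and 71.9% of the P815 list). On the rest of the chromosome the lists held 32 and 444 probes and shared 15 (46.9% and 3.38%). Of the shared probes, 38 of 46 in the window and 10 of 15 on the rest were low in no C57BI6 array. In the window 3 probes were low in P815 and in no Balb/C line. Only 1 run of at least 3 probes put P815 outside the range of the other 15 arrays, from 129113065 to 129137489 (3 probes), where it stood at 0.97 and the others between -0.16 and 0.71. P815 is 1 array, so none of this was tested. With normexp background correction P815 lay nearer Balb/C at 14 of 44 called window probes (31.8%), against 41.8% on the rest of chromosome 6 and 26.5% on the other autosomes. Its mean over the 79 probes was then -0.17, and that of CT26 was -0.39. Normexp took the SD of P815 over the rest of chromosome 6 from 0.57 to 0.20, and that of CT26 from 0.45 to 0.39.

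**Figure D4:**
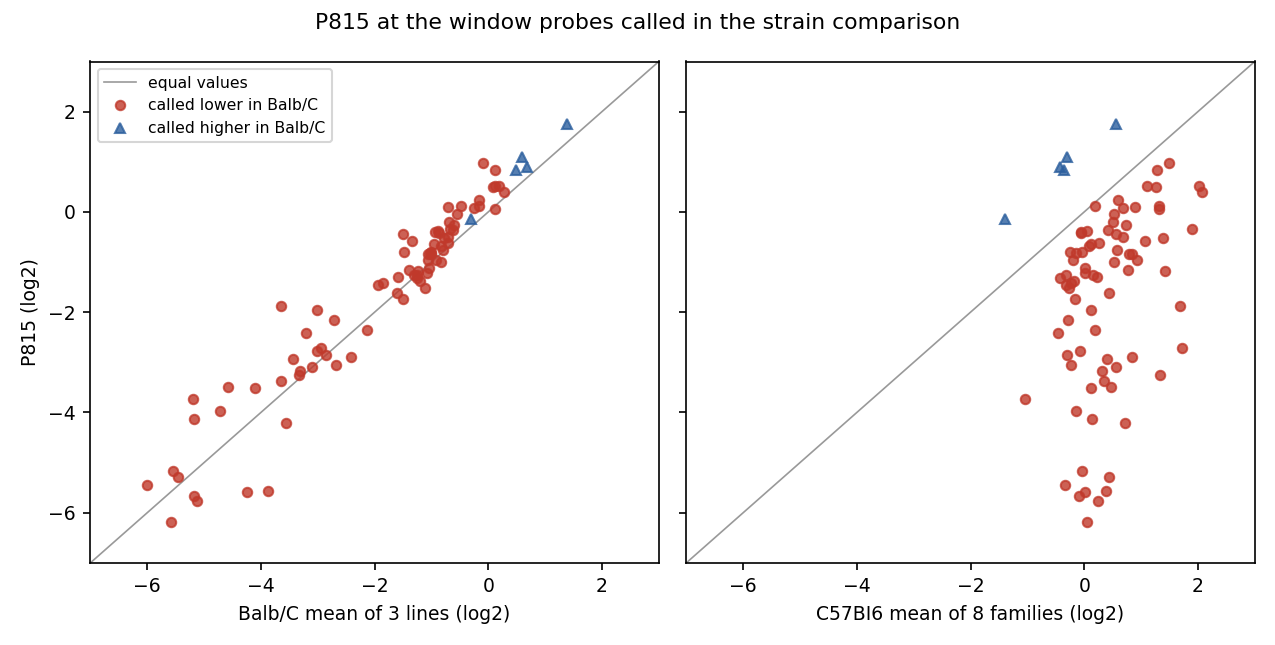
P815 (y axis, log2 ratio of line over reference) at the 84 called window probes against the Balb/C mean of 3 lines (left, x axis) and the C57BI6 mean of 8 families (right, x axis), with the line of equal values. Points follow the line on the left, down to about -6, and fall well below it on the right, where C57BI6 has no mean below -2.

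Normexp also changed the strain comparison. It called 44 window probes (8.12%, against 0.41% of the rest of chromosome 6 and 0.586% of autosomal probes), all among the 84. Of the 50 bins it called 3 (6%, against none of 1372 bins on the rest of chromosome 6, where 43 had an unadjusted limma p under 0.05, and 0.153% of autosomal bins), all lower in Balb/C. All 79 probes called lower kept their direction. Of the 10 runs with the largest differences, 9 lost the call at 1 probe or more, among them the run from 132609315 (mean difference -1.20, largest limma adjusted p 0.172) and that from 129952722 (-1.06, 0.449). The SD over the rest of chromosome 6 was 0.29 to 0.57 on the 16 arrays before it and 0.099 to 0.50 after it.

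The count of calls also changed in the 2 fits that took the scan into account. With the scan as a block limma called 60 window probes (11.1%, against 0.686% of the rest of chromosome 6), all among the 84, which formed 9 runs. That fit left out B16F10 NCI, so that B16 lay wholly in the other scan, which holds no Balb/C line. Its strain difference thus rests on the 3 Balb/C lines against Hepa1-6 and ID8. Both fits therefore differ from the main one in the lines compared as well as in the scan. Within scan 1, 3 Balb/C lines against B16F10 NCI, Hepa1-6 and ID8, it called 78 (14.4%, against 1.21%), of which 75 were among the 84. Of the 10 largest runs, 9 held at every probe in both.

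Some window probes were low in every array. All 16 arrays lay at or below -0.5 from the rest of chromosome 6 at 12 window probes (2.21%), against 33 on the rest of the chromosome (0.246%). The sparse block from 130500001 to 131000000 (11 probes), in which the longest gap lies, had medians from -0.47 in PAN02 to -0.91 in B16F10 NCI. Balb/C averaged -0.77 ± 0.078 (SD, n = 3), P815 was at -0.74 and C57BI6 averaged -0.66 ± 0.12 (SD, n = 8). Of its 11 probes 2 were called in the strain comparison, in opposite directions: 130510515 was lower in Balb/C (difference -0.86, limma adjusted p 0.00755), and 130534596, described above, was higher.

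Single C57BI6 lines departed from their strain over some stretches, a stretch being 8 or more neighbouring probes that each lay at least 0.25 to the same side of the median of the other families. The rule was set after the values were seen and carries no test. Such stretches were not particular to the window: EL4 had 2 in it (5.34% of the window's probes) and 77 on the rest of chromosome 6 (14.7%), LL2 had 1 and 28 (1.66% and 2.0%), and B16F10 ATCC had 1 and 17 (1.47% and 2.07%). The longest in the window outside MC38 was in EL4, a lymphoma line, from 131540489 to 131694209 (19 probes, 153.7 kb). EL4 lay at -0.77 there from the rest of chromosome 6, and the other C57BI6 arrays at -0.044 to -0.42, the lowest being MC38. Over the 5 probes before and after it EL4 stood at 0.39 and 0.16, and the median of the other families at 0.24 and -0.12. Along the stretch 18 of 19 probes lay at or below -0.40, with an SD over probes of 0.30. The rule favours such evenness, and also the end of the drop on both sides, since each probe had to pass it. It was not applied to the Balb/C lines. The Balb/C lines had similar means over the same probes (-0.86 in CT26, -0.80 in 4T1 and -0.77 in Renca) from a different pattern, with SDs over probes of 1.4, 1.5 and 1.3 and medians of -0.50, -0.34 and -0.26. With normexp EL4 stood 0.29 below the median of the other families in the stretch, against 0.64 without it.

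**Figure D5:**
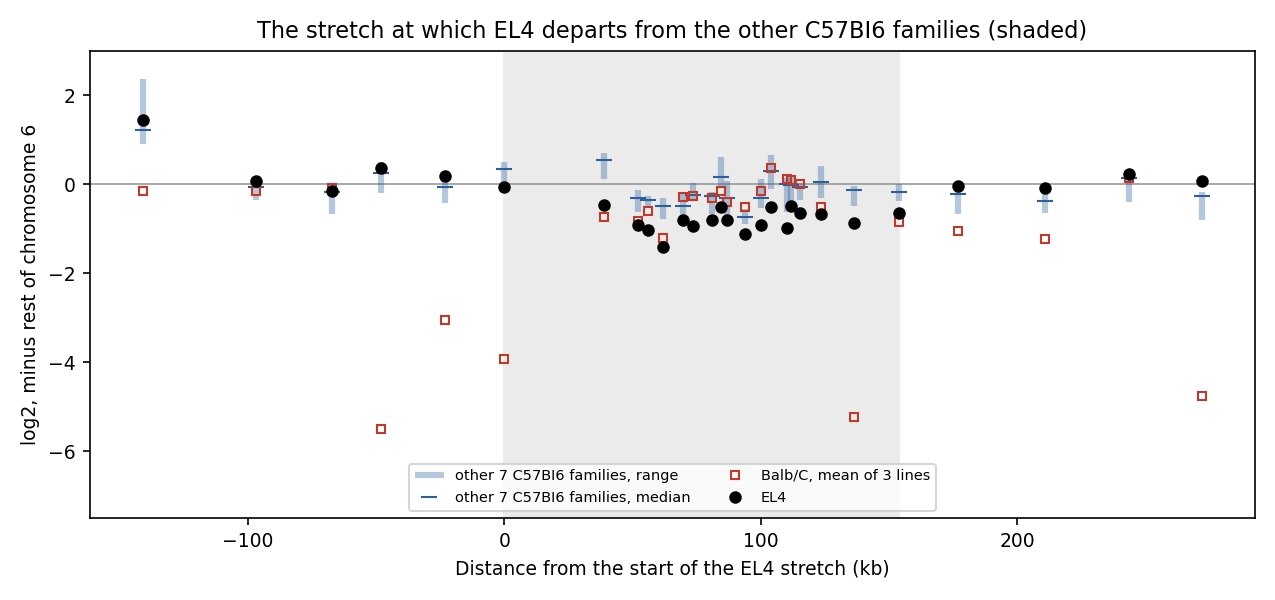
Log2 ratio minus the median of the rest of chromosome 6 (y axis) at probes in and around the EL4 stretch (shaded), against the distance from its start in kb (x axis). Black points are EL4, blue bars and ticks are the range and median of the other 7 C57BI6 families, and red squares are the mean of the 3 Balb/C lines. EL4 lies at or below the blue bars along most of the stretch. At the probes on both sides it lies within or above them. The choice of the stretch favours both. The red squares are deep at few probes and shallow at the others.

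In LL2, a lung line, 9 probes from 129831392 to 129890092 stood at -0.81, and the other arrays of C57BI6 at -0.069 to -0.59, again with MC38 lowest. Over the 5 probes before it LL2 was at -0.53 and the median of the other families at -0.18, and over the 5 after it they were at 0.24 and 0.50, so LL2 lay below the others on both sides too. In B16F10 ATCC, 8 probes from 131330609 to 131374677 averaged -0.83. The other 3 B16 arrays lay at -0.14, 0.0085 and -0.12, so these sublines were not alike there. The 8 probes had an SD of 0.88 and a minimum of -2.80, so the drop was uneven. Their median in B16F10 ATCC was -0.71. Each probe was chosen for lying at least 0.25 below the median of the other families, which favours a low median. The medians were -0.12 in B16F0 ECAC, -0.073 in B16F0 ATCC and -0.23 in B16F10 NCI.

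MC38 stood lower along much of the window. It had 16 such stretches in the window, all lower, with 232 probes (42.7%), and 80 on the rest of chromosome 6, with 1244 probes (9.26%). In the 16 its mean lay below the median of the other families by 0.37 to 0.51 and below the lowest of them by 0.066 to 0.37. Its medians over blocks of 0.5 Mb ran from -0.20 to -0.77. The lowest was in the sparse block from 130500001, where every array was low and C57BI6 averaged -0.66. Its next lowest was -0.63, in the block from 132000001, where C57BI6 averaged -0.30. Over the 3 Mb before the window MC38 stood at -0.0072, and over the 3 Mb after the window at -0.25.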

How the data were processed

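Genomic DNA of 16 tumour lines, 1 array each, was compared with a common reference on 2-colour arrays. The authors deposited spot intensity values from Feature Extraction, Agilent's scanner software (credited in the submitters' processing notes; version 10.7.3.1 per the file headers), which subtracted background, detrended and scaled the dyes linearly without lowess; per the labels red is the line. The deposited log10 ratio equals that of the processed signals, and the deposited log2 table is the same ratio uncentred. Flags of 0 or 1, which have no other unit, came with the deposited files. Positions are on mm8 per the file headers.

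Log2 of processed red over green was taken without control and outlier-flagged spots, repeat spots averaged, and each array centred on its autosomal median. Lines were grouped by the strain label. The strain comparison used limma 3.58.1 (lmFit, eBayes; R 4.3.3) over all autosomal probes with a value in every group member, and over means of 100 kb bins with at least 3 probes, two-sided, with Benjamini-Hochberg adjustment at 0.05. P815 stayed out of the fit. On simulated data of 220255 probes the fit recovered 79 of 100 planted changes of 1 in log2 and 100 of 100 of 2, with 17 false calls. The simulated noise was independent between probes and between lines. It held no scan, no like arrays and no tumour changes over neighbouring probes, so these counts need not hold for the real arrays. The number of arrays limits the precision.

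Named were the 10 largest strain runs in each direction (none was higher), called bins, P815's runs outside the other arrays and the longest runs of single lines. The planned gene lists were not placed, since gene positions on mm8 and probe sequences were not used here. Stretches of single lines (at least 8 neighbouring probes, each at least 0.25 from the median of the other families) were added after seeing the data. Normexp (offset 50) used median spot signals, where mean signals had been planned. The members and lists were chosen with earlier results of these data known. Other alternatives were centring, flags, dim probes, the deposited table, scan, families, bin size, thresholds and leaving out each line or family.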

Additional observations from a re-analysis of the deposited data

Results flagged for a closer look

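MC38 stood apart below the other 7 C57BI6 families in 4 of 33 sets of family values checked for a value far from the rest. Chance alone sets apart about 1 in 20 such groups when they are independent. These runs, bins and blocks share probes, so their count cannot be set against that rate. All values are means from the rest of chromosome 6. In the run from 132609315 to 132622717 MC38 was at -0.55 and the others between -0.19 and 0.087. In the run from 132952955 to 132968482 it was at -0.34 and the others between -0.075 and 0.12. In the bin from 130000001 to 130100000 it was at -0.71 and the others between -0.40 and -0.23, and in the bin from 131400001 to 131500000 at -0.41 against -0.017 to 0.16. MC38 remained above the Balb/C lines in all 4.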

How the results depend on the processing

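No paired analysis was possible because the replicate numbers only follow sample order and pair no lines. Under 13 other settings apart from normexp, 60 to 87 window probes were called, and leaving out a line or family gave 70 to 89. Normexp gave 44 probes, 3 bins and 9 runs. Bins of 200 kb gave 5 called of 26 (19.2%) and bins of 50 kb gave 13 of 78 (16.7%), beside 10 of 50 (20%) at 100 kb. Leaving out a line or family gave 8 to 11 called bins of 100 kb. There were 9 runs with the scan as a block, 7 with at least 3 probes per run, and 11 to 15 without a line or family.

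The share of called probes at which P815 lay nearer Balb/C was 31.8% with normexp, 97.3% centred on the rest of chromosome 6, 95% with the scan as a block, 96.2% within scan 1 and 87.0% to 92.9% without a line or family. The share of window probes at or past 1 in either direction was 12.5% in Balb/C, 5.79% in C57BI6 and 14.5% in P815. It became 7.18%, 3.13% and 0.184% with normexp, 28.8%, 27.6% and 36.8% at a threshold of 0.5, and 5.59%, 0.357% and 5.71% at a threshold of 2. In Balb/C it was 9.80% without probes dim in every Balb/C line and 14.01% in a window 0.5 Mb shorter at either end. There the Balb/C median lay at -0.17, and with means in place of medians Balb/C stood at -0.35 and P815 at -0.27. Runs of single lines numbered 16 in Balb/C, 10 in C57BI6 and 7 in P815, and with normexp 6, 3 and 0.

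No named run or bin reversed under any setting tried. Signal limits depth: at the 16 probes dim in every Balb/C line only a bound is known.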
